A study of Mus musculus with 3 samples.

Results

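The 10 genes described here encode the heavy and light chains of the major histocompatibility complex (MHC) class I molecule and Nlrc5, the factor that switches class I genes on. They were chosen by symbol as 8 heavy chain genes of the mouse H2 complex (H2-K1, H2-D1, H2-Q4, H2-Q6, H2-Q7, H2-T22, H2-T23 and H2-M3), the light chain gene B2m, and Nlrc5. All 10 were found, among 55450 annotated genes in the tables. The cells were primary macrophages derived from bone marrow of the mouse strain C57BL/6J, which carries the b haplotype of the H2 complex. Per the sample descriptions they received 100 ng/ml lipid A for 12 hours, a washout of 12 hours, and 100 ng/ml lipid A for a further 180 minutes. Lipid A is the lipopolysaccharide part that Toll-like receptor 4 senses. The treatment fields of the labels instead list lipoprotein A, a protein, and the labels do not settle which was used. The 3 samples, replicates 1, 2 and 3, form a single group. All carry the same donor record, with age and sex not collected, so the spread given below is between these samples and may be technical. Macrophages with no exposure or a single one were not analysed here. The results are therefore levels, ratios within a sample and spread, with no test between conditions.

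Class I molecules sit on nearly every nucleated cell and display short peptides cut from the cell's own proteins to CD8 T cells, with B2m as the invariant light chain on which the heavy chains depend for stable folding. H2-K1 and H2-D1 are the classical, highly polymorphic heavy chains of this strain, while the Q, T and M genes encode non-classical chains with narrower roles, several of them seen by natural killer cells or unconventional T cells. Nlrc5 is a protein of the NOD-like receptor family that enters the nucleus and activates class I genes through factors bound at a conserved promoter module of X and Y boxes. Further upstream, class I promoters can carry sites for NF-kappaB and for interferon regulatory factors.

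The promoter windows below, from RefSeq on GRCm38.p6, cover 250 bases before to 50 bases after the start site and are written 5′ to 3′ on the strand of the gene. They are shown for the 2 classical genes, a Q gene, a T gene and the light chain. Capitals mark motifs searched on both strands: the kappaB letters GGGGATTNCC, their exact form GGGGATTCCCC where it is present, the interferon-response letters AGTTTCACTT, and 2 shorter ones. The X2 letters are TGATGAC. The Y box letters are CCAAT. The kappaB and interferon-response letters were read from the H2-K1 window, so its own matches to them follow from that choice. The windows are chr17:34000298-34000597 on the minus strand for H2-K1, chr17:35262844-35263143 on the plus strand for H2-D1 and chr17:35438905-35439204 on the plus strand for H2-Q7. Those of H2-T23 and B2m are chr17:36032652-36032951 on the minus strand and chr2:122147437-122147736 on the plus strand.
H2-K1: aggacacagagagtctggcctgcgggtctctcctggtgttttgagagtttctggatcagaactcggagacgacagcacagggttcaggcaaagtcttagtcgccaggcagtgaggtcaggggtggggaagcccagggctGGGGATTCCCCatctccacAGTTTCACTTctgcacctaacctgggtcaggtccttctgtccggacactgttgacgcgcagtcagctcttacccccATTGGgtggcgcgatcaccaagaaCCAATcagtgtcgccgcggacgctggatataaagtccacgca
H2-D1: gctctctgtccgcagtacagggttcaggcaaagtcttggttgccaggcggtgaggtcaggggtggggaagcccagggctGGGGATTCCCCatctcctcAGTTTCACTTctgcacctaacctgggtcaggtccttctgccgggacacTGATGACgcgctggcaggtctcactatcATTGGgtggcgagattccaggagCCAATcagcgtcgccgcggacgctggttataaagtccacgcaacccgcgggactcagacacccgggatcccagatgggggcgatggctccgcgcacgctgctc
H2-Q7: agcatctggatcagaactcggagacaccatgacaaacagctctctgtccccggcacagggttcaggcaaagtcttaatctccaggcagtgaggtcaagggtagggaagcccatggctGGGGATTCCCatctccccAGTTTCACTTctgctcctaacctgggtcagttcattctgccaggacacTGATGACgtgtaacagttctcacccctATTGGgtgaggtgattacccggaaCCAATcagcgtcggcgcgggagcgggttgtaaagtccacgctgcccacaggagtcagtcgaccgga
H2-T23: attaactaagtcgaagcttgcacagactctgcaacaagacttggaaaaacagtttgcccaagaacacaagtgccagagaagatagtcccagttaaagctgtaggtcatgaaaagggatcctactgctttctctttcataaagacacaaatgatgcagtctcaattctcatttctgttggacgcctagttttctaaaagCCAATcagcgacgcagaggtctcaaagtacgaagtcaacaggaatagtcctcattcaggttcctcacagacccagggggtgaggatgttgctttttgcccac
B2m: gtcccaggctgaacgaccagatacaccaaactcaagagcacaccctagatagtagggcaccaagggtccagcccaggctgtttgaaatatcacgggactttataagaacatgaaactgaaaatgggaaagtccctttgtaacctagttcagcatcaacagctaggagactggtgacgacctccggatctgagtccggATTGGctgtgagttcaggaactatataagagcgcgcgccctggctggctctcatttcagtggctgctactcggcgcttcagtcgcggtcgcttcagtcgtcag

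RefSeq windows were matched for 9 of the 10 members, all except Nlrc5. The exact kappaB palindrome GGGGATTCCCC was present in 3 of the 9 windows (H2-K1, H2-D1 and H2-Q6) and in 0.0304% of 32851 windows of mouse genes. The looser kappaB letters, which also match every exact site, were in 5, those of H2-K1, H2-D1, H2-Q4, H2-Q6 and H2-Q7, against 0.268% of all windows. The interferon-response letters were in 6, the same 5 and H2-T22, against 0.140%. The X2 letters were in 6, those of H2-D1, H2-Q4, H2-Q6, H2-Q7, H2-T22 and H2-M3, against 3.23%. A Y box was in all 9, against 37.4%, and the letters TATAAA were in 4, against 13.6%. In H2-K1 the kappaB letters began 111 bases and the interferon-response letters 92 bases before the start site, and in H2-D1 they began 171 and 152 bases before it. The letters CCAAT and TATAAA were likewise displaced, at positions 9 and 36 past the start site in H2-K1. In H2-D1 they began 53 and 26 bases before it. RefSeq lists 2 windows for H2-K1 and 1 for H2-D1, so these distances depend on the start site used. H2-T23 and B2m held a Y box and none of the other marked motifs. Windows of related genes descend from shared sequence and are not independent, and a match is a description of letters only.

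Levels are given as TPM, the share of transcripts in a sample scaled by transcript length, and come from the alignment-based gene table unless the FASTQ table is named. B2m, the light chain, stood highest of the 10. Its levels were 16180.5, 13685.5 and 15243 TPM in replicates 1, 2 and 3, with a mean of 15036 ± 1260.3 TPM (SD, n = 3). They rest on 154684, 205949 and 230287 estimated counts, and B2m ranked 7 among 21951 protein-coding genes by mean TPM. B2m (ENSMUSG00000060802.8, chr2:122147686-122153083, plus strand, mm10) has 1 annotated transcript and shares none of its 31-base sequences with another gene. It lies across Patl2 on the opposite strand, which stood at 0.46, 0.27 and 0.26 TPM, and whether counting used strand is not stated.

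The classical heavy chains followed. H2-K1 (ENSMUSG00000061232.16, chr17:33996017-34000347, minus strand) stood at 8532, 8253 and 9034 TPM, a mean of 8606 ± 396 TPM (SD, n = 3), rank 10. H2-D1 (ENSMUSG00000073411.11, chr17:35262730-35267499, plus strand) stood at 4773, 4772 and 5228 TPM, a mean of 4924 ± 263 TPM, rank 17. Every H2-K1 value lay above every H2-D1 value. In estimated counts the order was the other way, with 118081, 162311 and 175272 for H2-K1 and 132135, 214547 and 238240 for H2-D1.

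Among the non-classical chains the highest was H2-T23, which encodes Qa-1, the presenter of class I leader peptides to the CD94/NKG2A receptor of natural killer cells. It stood at 940, 1124 and 1112 TPM, a mean of 1058 ± 103 TPM (SD, n = 3). H2-T22, whose product is bound by some gamma delta T cells, stood at 755, 670 and 759 TPM, a mean of 728 ± 50.5 TPM. The lowest H2-T23 replicate was above the highest of H2-T22.

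The 3 Q genes stood lower. H2-Q4, a non-classical chain of the Q region, was at 676, 628 and 560 TPM, a mean of 621 ± 58.6 TPM (SD, n = 3). H2-Q7, a gene of the Qa-2 antigen, was at 429.75, 378 and 424 TPM, a mean of 411 ± 28.3 TPM. H2-Q6, also a Qa-2 gene, was at 357, 305 and 330.2 TPM, a mean of 331 ± 25.6 TPM. The ranges of H2-Q7 and H2-Q6 did not overlap, whereas that of H2-Q4 overlapped with H2-T22 above it. The annotated antisense gene Gm11131 overlaps H2-Q4 and stood at 2.27 to 2.88 TPM, and A930015D03Rik, opposite H2-T22 and H2-T23, stood at 0 to 0.41 TPM.

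H2-M3, which presents peptides with an N-formyl methionine as made by bacteria and mitochondria, was the lowest heavy chain at 115, 145 and 139 TPM, a mean of 133 ± 15.8 TPM (SD, n = 3). Nlrc5 (ENSMUSG00000074151.13, chr8:94434356-94527272, plus strand) was the lowest of the 10 at 101, 119 and 57.7 TPM, a mean of 92.7 ± 31.7 TPM, from 4824, 8059 and 4550 estimated counts. Replicates 1 and 2 lay close together and replicate 3 lay well below them. The lincRNA gene 9330175E14Rik overlaps 748 bases of Nlrc5 on the opposite strand and stood at 13.9, 14.5 and 12.1 TPM. The ranges of H2-M3 and Nlrc5 overlapped, although H2-M3 was higher than Nlrc5 within each of the 3 replicates.

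**Figure D1:**
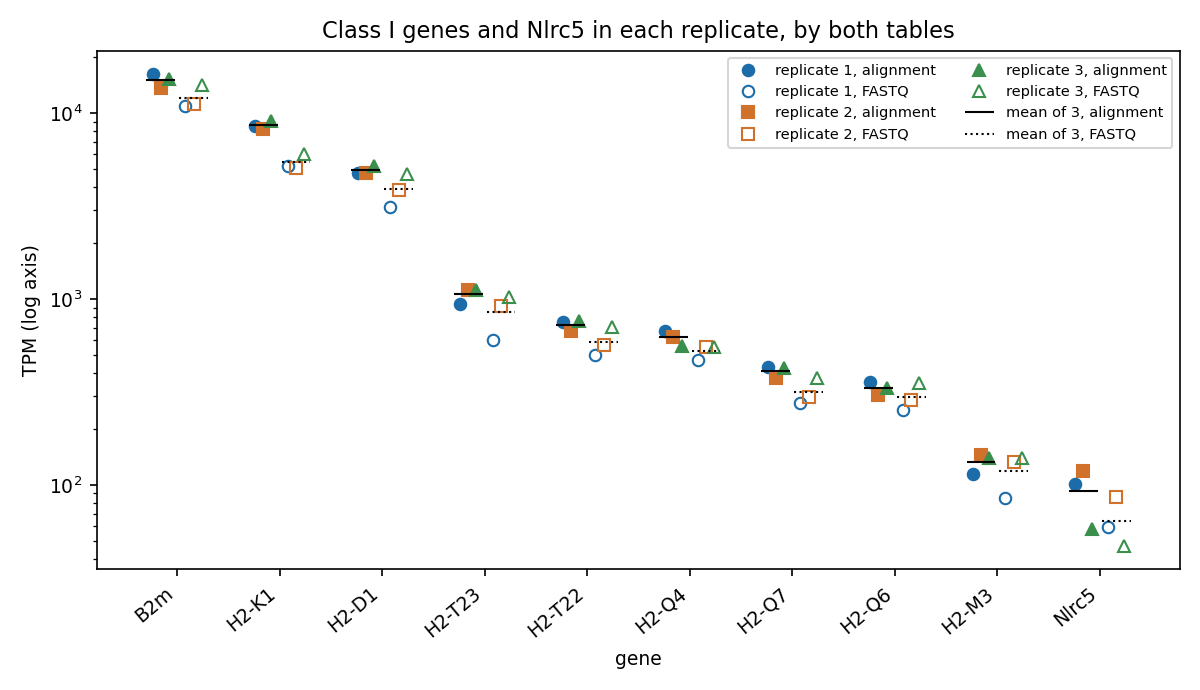
TPM on a log axis for each gene and replicate, with filled symbols for the alignment table, open symbols for the FASTQ table and lines for the means of 3 replicates. B2m is highest at 15036 TPM and Nlrc5 lowest at 92.7 TPM in the alignment table, and the Nlrc5 point of replicate 3 stands apart at 57.7 TPM.

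Read as an order, 7 of the 9 pairs of neighbours had ranges that did not overlap, the exceptions being H2-T22 with H2-Q4 and H2-M3 with Nlrc5. Within a replicate, the higher gene of each of the 9 pairs was higher in 3 of 3 replicates. The pairs were ordered by the means of these same values, so these counts describe the order and are no separate evidence for it. The widest step between heavy chains was from H2-D1 to H2-T23, a log2 ratio of 2.22 ± 0.13 (SD, n = 3). All 10 members reached at least 1 TPM in every replicate, as did 44.4% of protein-coding genes, and 9 of 10, all except Nlrc5, had a mean of at least 100 TPM, as did 5.87%. Together the 10 took 3.29%, 3.01% and 3.29% of all TPM in replicates 1, 2 and 3. In bulk RNA, fewer cells of a type and less RNA per cell cannot be told apart.

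H2-K1 and H2-D1 together made up 80.5% ± 0.565 (SD, n = 3) of the summed TPM of the 8 heavy chains. H2-K1 alone held 51.2% ± 0.411 and H2-D1 29.3% ± 0.471. The 3 Q genes held 8.12% ± 0.677, the T genes H2-T22 and H2-T23 10.6% ± 0.397, and H2-M3 0.791% ± 0.0983. The classical pair was thus most of the heavy chain message in each replicate. The heavy chains summed to 16577, 16274 and 17585 TPM, close to B2m itself, and the ratio of B2m to their sum was 0.976, 0.841 and 0.867. As log2 this ratio was -0.16 ± 0.11 in the alignment table and 0.01 ± 0.06 in the table made from FASTQ files. Over protein-coding transcripts alone it was 0.25 ± 0.07, so which side was higher depended on the measure.

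The H2-K1 lead over H2-D1 rested mostly on transcripts not annotated as protein coding. In TPM the log2 ratio of H2-K1 to H2-D1 was 0.84, 0.79 and 0.79, a mean of 0.81 ± 0.03 (SD, n = 3). Over transcripts annotated as protein coding it was 0.08, -0.18 and -0.22, a mean of -0.11 ± 0.16, with H2-K1 higher in 1 of 3 replicates. The FASTQ table gave 0.49 ± 0.20 over all transcripts and -0.03 ± 0.12 over protein-coding ones. Counts divided by the deposited effective length of the longest protein-coding transcript gave 0.11 ± 0.15. In replicate 1 this effective length was 1359 bases for H2-K1-201, of 1619 bases, and 1842 for H2-D1-202, of 2102 bases. The ratio with full lengths was not computed. Counts per library total (CPM), not divided by length, gave -0.34 ± 0.15. Over protein-coding transcripts alone, in both tables, the mean difference was smaller than the SD between replicates. Counts per base of effective length include reads given to all transcripts of a gene. They had H2-K1 higher in 3 of 3 replicates, by a mean also smaller than the SD.

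**Figure D2:**
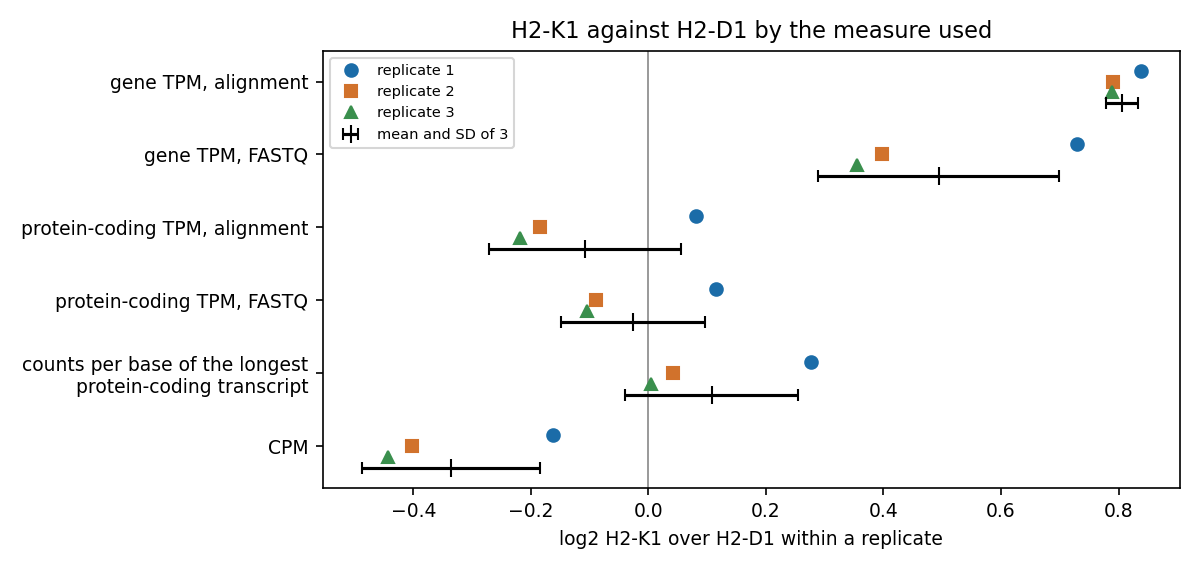
Log2 ratio of H2-K1 to H2-D1 within each replicate under 6 measures, with symbols for replicates and bars for the mean and SD of 3. The ratio runs from 0.81 in gene TPM of the alignment table to -0.34 in CPM.

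The main such transcript, H2-K1-215, is annotated as a retained-intron transcript of 457 bases (chr17:33996106-33996674, minus strand) in 2 exons at the 3′ end of the gene, with no coding bases. It stood at 3176, 3838 and 4395 TPM in the alignment table, or 37.2%, 46.5% and 48.7% of the TPM of H2-K1. The FASTQ table gave it 1571, 1312 and 1549 TPM. It has 0 of 427 31-base sequences of its own, and 409 also occur in H2-K1-201, the full-length protein-coding transcript of 1619 bases. H2-K1-201 stood at 4016, 3460 and 3698 TPM in the alignment table. How the reads of the 3′ end divide between these 2 transcripts is therefore an estimate of each program, and the reads themselves were not analysed here.

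Retained-intron transcripts took 46.9% ± 5.10 (SD, n = 3) of H2-K1 TPM in the alignment table and 30.3% ± 3.92 in the FASTQ table. In H2-D1 they took 0.563% ± 0.0983, so the pair differed in this respect in both tables. Protein-coding transcripts made up 100% of B2m, H2-M3 and H2-Q6, and between 94.2% and 99.4% of H2-D1, H2-Q4, H2-T22 and H2-T23 in the alignment table. H2-Q7 stood at 84.8% ± 2.86 protein coding.

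**Figure D3:**
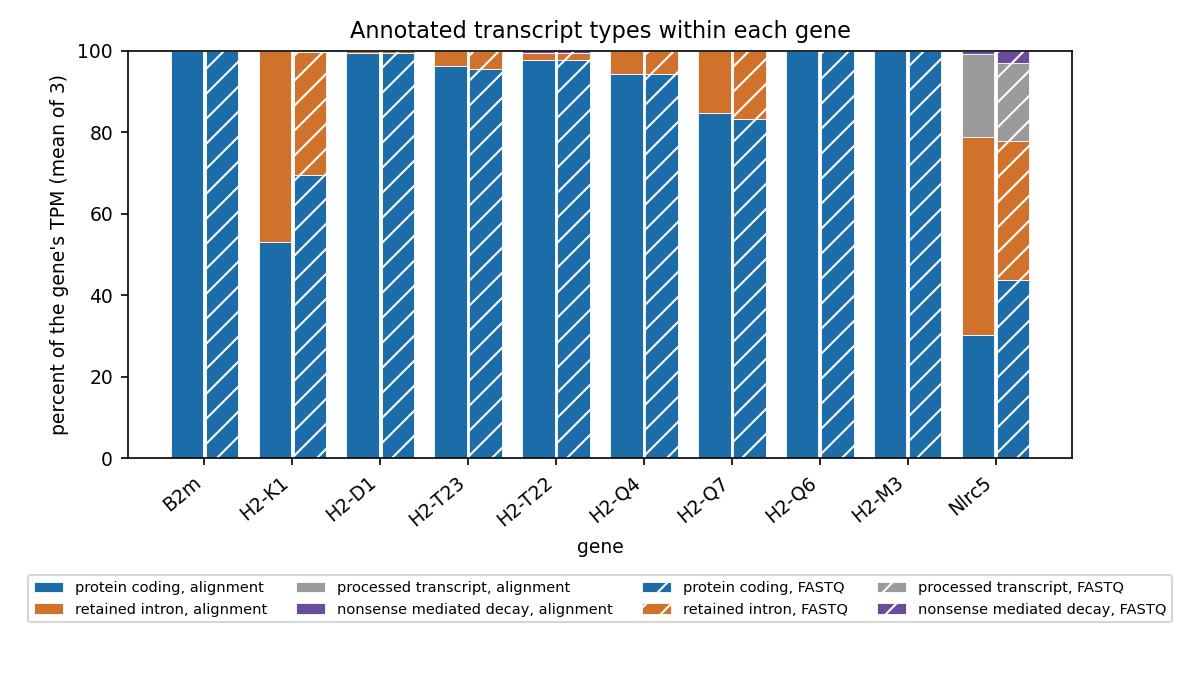
Percent of each gene's TPM in transcripts of each annotated type, as means of 3 replicates, with plain bars for the alignment table and hatched bars for the FASTQ table. H2-K1 and Nlrc5 have the largest shares of retained-intron transcripts, 46.9% and 48.5% in the alignment table.

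Within H2-Q7 the leading transcript was a short form. H2-Q7-204 held 56.8%, 50.3% and 45.8% of H2-Q7 TPM in replicates 1, 2 and 3, and H2-Q7-201 held 25.4%, 32.1% and 41.1%. The coding sequence of H2-Q7-204 is 645 bases against 1002 bases in H2-Q7-201. It lacks the exon of 285 bases at chr17:35442267-35442551, the fourth coding exon, which in class I genes encodes the alpha 3 domain that contacts B2m and CD8. It also lacks the fifth coding exon, of 107 bases at chr17:35442678-35442784, and ends instead in coding stretches of 33 and 2 bases. The FASTQ table gave a similar division, with 55.7%, 46.3% and 43.7% in H2-Q7-204. The short form has 22 of 1104 31-base sequences of its own and carries the annotation's support level 5, its weakest, while H2-Q7-201 carries level 1. In H2-T22, the transcripts H2-T22-202 and H2-T22-203 held 60.4% ± 3.81 and 36.1% ± 4.03 (SD, n = 3), and H2-T22-203 has 0 of 1731 31-base sequences of its own.

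On the TPM scale, which weighs transcripts and not bases, most of Nlrc5 lay in transcripts without a protein-coding annotation. Protein-coding transcripts held 30.3% ± 3.31 (SD, n = 3) of its TPM in the alignment table and 43.7% ± 3.87 in the FASTQ table. The full-length form Nlrc5-207, of 7578 bases and 53 exons, stood at 27.2, 26.99 and 18.5 TPM. The retained-intron transcript Nlrc5-203, of 1727 bases in 2 exons at the 3′ end (chr8:94525067-94527268), stood at 42.0, 51.7 and 23.2 TPM. Of its 1697 31-base sequences 1344 also occur in Nlrc5-207 and 31 are its own. Like H2-K1-215, it is a short transcript that ends near the 3′ end of its gene.

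The length used for a gene bears on its TPM. For Nlrc5 the deposited effective length was 2998, 2603 and 2984 bases, against 7318, 7298 and 7289 bases for Nlrc5-207. CPM per kilobase of effective length of the longest protein-coding transcript gave 28.2, 30.0 and 16.6 for Nlrc5, and 78.3, 102 and 97.5 for H2-M3. On this scale the 2 genes did not overlap. On the same scale H2-K1 was at 3719, 3291 and 3497 and H2-D1 at 3070, 3198 and 3487, so their ranges overlapped, and the order of the 10 means was as in TPM. In CPM, not divided by length, the order changed in further places. Nlrc5 at 182 ± 53.4 CPM (SD, n = 3) lay above H2-M3 at 107 ± 13.5 CPM in each replicate, and the mean of H2-Q6 at 416 CPM lay above that of H2-Q7 at 403 CPM. H2-D1 lay above B2m in replicates 2 and 3, at 5827 against 5594 CPM and 6322 against 6111 CPM.

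Most heavy chain genes were nearly equal across the replicates, and Nlrc5 was the exception. The highest replicate was at least 1.5 times the lowest in 1 of 10 members, Nlrc5, and in 25.1% of all 10502 genes with at least 1 TPM in every replicate. Nlrc5 differed by 2.07 times in TPM and by 1.74 times in CPM with TMM factors, with replicate 3 lowest on both scales. A spread at least as wide was seen in 7.27% of genes. For the other 9 members the ratio of highest to lowest was between 1.09 for H2-K1 and 1.26 for H2-M3. By FASTQ TPM, where 47.6% of genes passed 1.5, 4 of 10 members did (H2-D1, H2-T23, H2-M3 and Nlrc5). In alignment TPM, replicate 3, where Nlrc5 was lowest, also had H2-Q4 at its lowest, and H2-K1, H2-D1 and H2-T22 at their highest. There H2-T23, H2-Q6, H2-Q7 and H2-M3 lay between their other replicates. By FASTQ TPM, every member except Nlrc5 was at its highest in replicate 3, and Nlrc5 was again at its lowest.

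Genes whose pattern over the 3 replicates lay nearest to Nlrc5 were sought among 6033 protein-coding genes with at least 10 TPM in every replicate. Likeness was the largest difference, over 3 samples, between the genes' log2 TPM minus its mean. The nearest were Cklf with a difference of 0.05, Fam111a with 0.07, Rgl2 with 0.11, 4932438A13Rik with 0.11 and Mterf3 with 0.12. Cklf, which encodes a chemokine-like factor, stood at 41.2, 50.01 and 25.2 TPM, and Fam111a, a protease gene, at 28.9, 34.9 and 18.0 TPM. Ciita, the class II counterpart of Nlrc5, had another pattern, with 8.47, 3.95 and 10.8 TPM. Replicate 3 was low by 0.62 (log2) against the mean in Nlrc5, and 25 of the 6033 genes were as low there. A pattern over 3 samples is a description and carries no information on control.

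Heavy chain genes are near copies of each other, which limits how reads can be assigned to them. Over 28 pairs, the coding sequences of the leading protein-coding transcripts were 66.8% to 93.5% identical, with a median of 78.2%. H2-K1 and H2-D1 were 91.5% identical over 1077 aligned bases, and H2-Q6 and H2-Q7 were 93.5% identical over 645, since the leading H2-Q7 transcript is the short form. The longest identical run was between H2-D1 and H2-T23, a classical and a non-classical gene, and lies in a single exon of each (GRCm38, chr17:35265827-35265971 on the plus strand and chr17:36030910-36031054 on the minus strand). It is shown because a read within these 145 bases cannot by itself be assigned to either gene, and capitals mark bases that are the same in both.
H2-D1 and H2-T23: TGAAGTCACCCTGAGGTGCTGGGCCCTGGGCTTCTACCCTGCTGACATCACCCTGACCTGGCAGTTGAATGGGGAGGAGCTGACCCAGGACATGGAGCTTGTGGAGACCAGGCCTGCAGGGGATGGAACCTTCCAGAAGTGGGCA

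The share of a gene's 31-base sequences found in other genes ran from 0% in B2m and Nlrc5 to 51.0% in H2-T22. It was 4.62% in H2-M3, 22.8% in H2-K1, 24.5% in H2-T23, 26.7% in H2-D1, 38.4% in H2-Q4, 39.1% in H2-Q7 and 50.3% in H2-Q6. H2-T22 shared 47.2% with H2-T10, a T gene at 27.2 ± 5.26 TPM (SD, n = 3), and H2-T22 stood well above H2-T10. H2-Q7 shared 22.4% with H2-Q10, which in mice is secreted by the liver and stood at 0.653 ± 0.274 TPM, and 15.5% with H2-Q5 at 73.5 ± 36.2 TPM. The FASTQ table gave means of 3.30 TPM for H2-Q10 and 51.5 TPM for H2-Q5. H2-Q6 shared 24.6% with H2-Q4, 18.4% with H2-Q7 and 12.9% with H2-Q5, and H2-T23 shared 12.4% with the pseudogene H2-T-ps. H2-K1 shared 11.1% with H2-D1, H2-D1 shared 13.8% with H2-K1, and H2-Q4 shared 19.5% with H2-Q6. The authors' posterior SD of the count was 11.3 counts or less in every member and replicate, highest in H2-Q7 and H2-Q6, against at least 9903 counts for these 2 genes. Their bounds for TPM nevertheless lay below the TPM printed here in every replicate of each member except Nlrc5. In replicate 1 the bounds were 14906 to 15073 TPM for B2m, printed at 16180.5, and 7819 to 7992 TPM for H2-K1, printed at 8532.

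**Figure D4:**
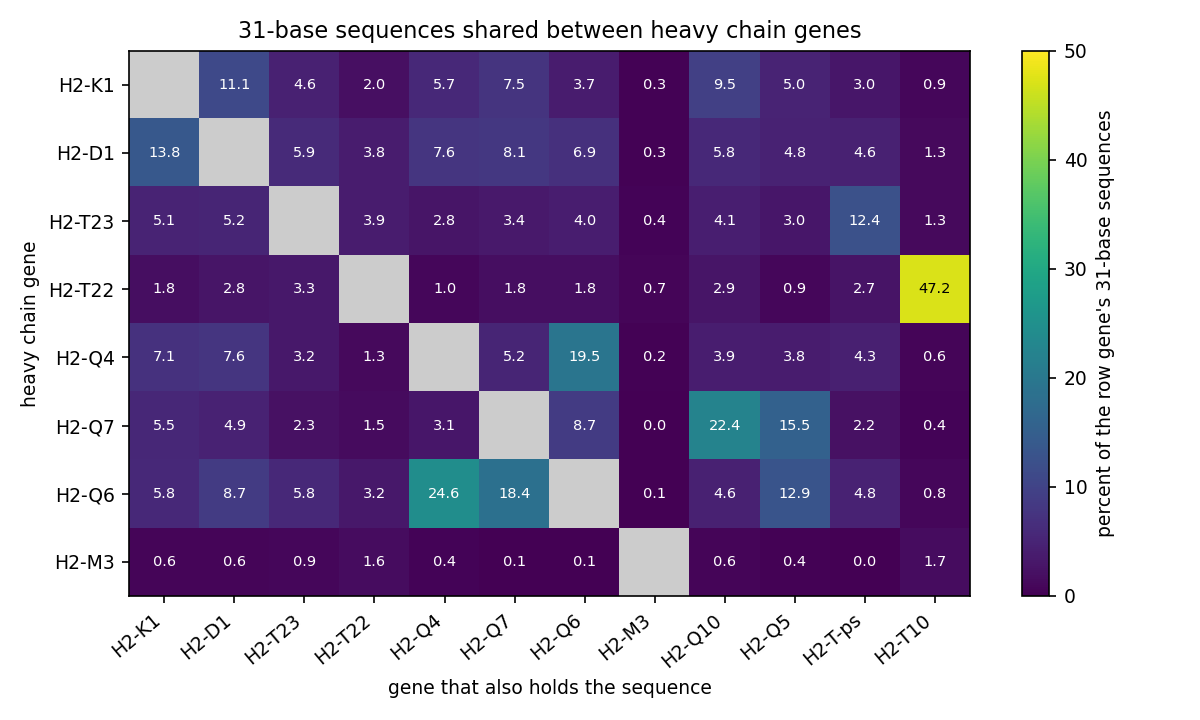
Percent of each heavy chain gene's 31-base sequences (rows) that also occur in another gene (columns), from 0 to 50 on the colour scale, with grey where a gene meets itself. The highest cell is H2-T22 with H2-T10 at 47.2%, and the H2-M3 row is near 0.

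The 2 quantifications were then compared gene by gene as the log2 ratio of FASTQ to alignment TPM, with 1 added to each. The median over 10502 genes was -0.43, -0.17 and -0.02 in replicates 1, 2 and 3, so the whole FASTQ table lies lower in replicate 1. In that table Mir6236 is listed at 102792, 108562 and 56900 TPM, and Klf10 at 101009, 1129 and 1297 TPM. The alignment table lists Mir6236 at 0 and Klf10 at 4.87, 8.47 and 4.97 TPM. The FASTQ tables come from 6 files in replicate 1 and 4 in replicates 2 and 3, and the part of this in the shift was not tested.

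In replicate 1 Nlrc5 differed most between the tables, at -0.76, and by the mean of 3 replicates H2-K1 did. The log2 ratio of H2-K1 was -0.72, -0.70 and -0.58, and it was the 1 member of 10 more than 0.5 lower in all replicates, as were 3.18% of all genes. None of the 10 was more than 0.5 higher in all replicates, as were 0.876% of genes. Relative to the median gene, H2-K1 was -0.29, -0.53 and -0.55, a mean of -0.46 ± 0.15 (SD, n = 3), and 3.30% of genes lay lower. Nlrc5 was at -0.30 ± 0.03, with 4.57% of genes lower. No member passed 0.5 in all replicates on this scale, where 2.46% of genes were lower and 1.55% higher. The other 8 members lay between -0.18 for H2-Q7 and 0.05 for H2-Q6.

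**Figure D5:**
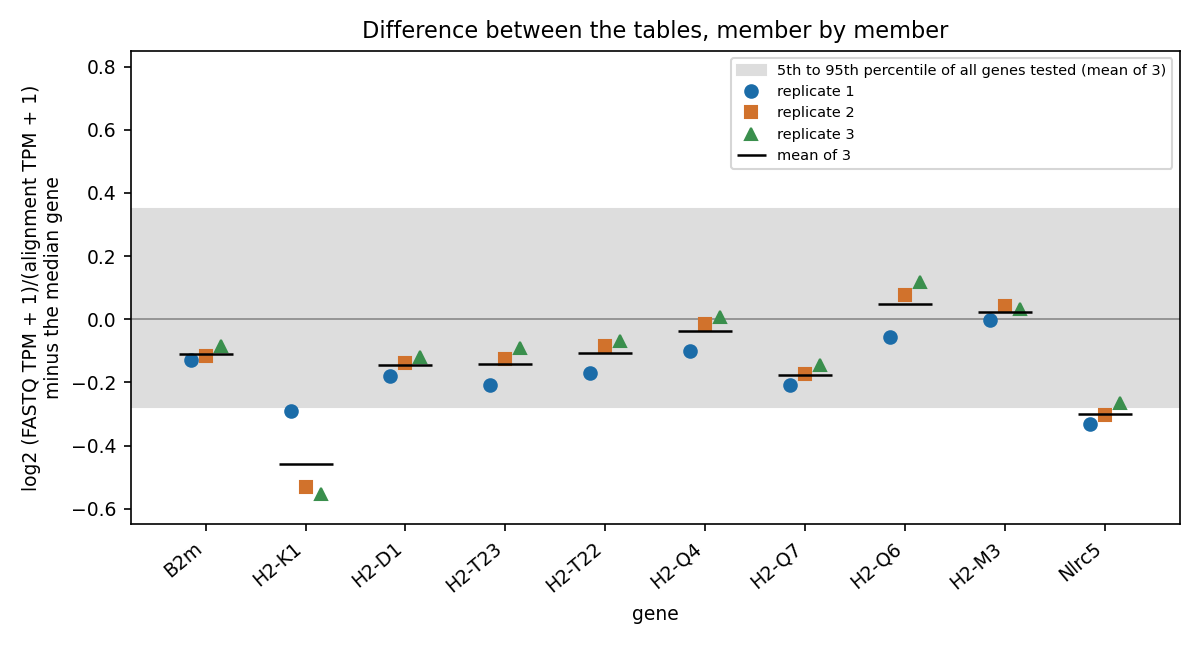
Log2 ratio of FASTQ to alignment TPM minus the median gene, for each member and replicate, with lines for means of 3. The grey band spans the 5th to 95th percentile of all genes tested, and the means of H2-K1 at -0.46 and Nlrc5 at -0.30 fall below it.

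By FASTQ TPM the order of the 10 was the same, with B2m at 12120 ± 1738 TPM (SD, n = 3), H2-K1 next at 5439 ± 531 TPM and then H2-D1, whose mean was 3905 ± 803 TPM. There, ranges of H2-T23 with H2-T22 and of H2-Q7 with H2-Q6 also overlapped. Summing a member with the genes that share at least 10% of its sequence left the H2-K1 and H2-D1 sum at -0.33 ± 0.07 against the median gene, and no sum passed 0.5 in all replicates.

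Of 15 further class I genes in the tables, 5 reached 1 TPM in every replicate, beside 44.4% of protein-coding genes: H2-T24 at 121 ± 11.5 TPM (SD, n = 3), H2-M2 at 77.0 ± 43.8 TPM, H2-Q5, H2-T10 and H2-K2 at 16.3 ± 4.20 TPM. Another 8 were listed at 0 in all replicates, among them H2-T3 and H2-M5. H2-M2 varied widely in both tables, at 121, 34.0 and 75.6 TPM by alignment and 97.9, 34.5 and 86.1 TPM by FASTQ. H2-Q5 varied widely in the alignment table only, at 71.0, 111 and 38.6 TPM. The FASTQ table gave it 58.1, 45.8 and 50.6 TPM, with replicate 2 lowest and not highest. The median of this list was 0 TPM, against 0.353 TPM over all protein-coding genes. A further 9 class I genes searched for by symbol, H2-Q8 and H2-Q9 among them, were not found among the annotated genes. They were not analysed here, and sequence sharing with them was not measured.

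Of 9 class I-like genes outside the H2 complex, 6 reached 1 TPM in every replicate, beside 44.4% of protein-coding genes. The highest were Fcgrt, the heavy chain of the neonatal Fc receptor, at 44.4 ± 18.4 TPM (SD, n = 3), and Hfe, which controls iron uptake, at 23.2 ± 4.40 TPM. Procr, the protein C receptor gene, was at 21.2 ± 12.7 TPM and Ulbp1, which encodes a ligand of the NKG2D receptor, at 12.6 ± 1.74 TPM. The median of the 9 was 11.1 TPM. Fcgrt, Hfe, Mr1 and Cd1d1 products also pair with B2m, and Mr1 stood at 11.1 ± 1.17 TPM and Cd1d1 at 9.67 ± 2.77 TPM, each far below H2-D1.

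The machinery that supplies and loads peptides was present throughout. All 13 genes reached 10 TPM in every replicate, as did 6033 of 21951 protein-coding genes. Their median was 311 TPM against 18.1 TPM over the 9741 protein-coding genes with at least 1 TPM in every replicate. Psme2, a subunit of the PA28 proteasome activator, stood at 927 ± 33.2 TPM (SD, n = 3), and the loading chaperone gene Tapbp (tapasin) at 787 ± 48.8 TPM. The chaperone gene Calr was at 735 ± 119 TPM and Psmb8, of the immunoproteasome, at 672 ± 32.9 TPM. The peptide transporter genes Tap1 and Tap2 were at 291 ± 12.2 and 102 ± 15.5 TPM. The means of these 6 lay below that of H2-T23 and above that of Nlrc5.

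The factors that act at class I promoters were also all detected, 15 of 15 at 1 TPM in every replicate, beside 44.4% of protein-coding genes. Their median was 22.6 TPM, near the 18.1 TPM of protein-coding genes with at least 1 TPM in every replicate. Irf1, which binds interferon-response sites, stood at 323 ± 26.4 TPM (SD, n = 3). The NF-kappaB subunit genes Nfkb1 and Rela were at 247 ± 30.5 and 88.0 ± 8.23 TPM. The 3 genes of the RFX complex, which binds the X box and recruits Nlrc5, were low, with Rfxap at 14.9 ± 3.18, Rfx5 at 9.29 ± 0.922 and Rfxank at 6.47 ± 0.502 TPM.

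The labelled cell type matched its markers, since each of 10 macrophage markers was above 10 TPM throughout, with sums of 20560 to 23424 TPM. Class I genes are expressed by most cells, so markers of others were read as well. None of 6 T and NK cell or 4 stromal genes reached 1 TPM in all replicates (sums of 0 to 1.32 and 0.54 to 0.64 TPM), and 1 of 5 B cell genes (Cd79b) and 1 of 5 dendritic cell genes (Ccr7) did, with sums of 1.78 to 4.39 and 3.77 to 5.22 TPM. Of 5 neutrophil genes, S100a8 and S100a9 did, with list sums of 11.2, 97.5 and 10.6 TPM in replicates 1, 2 and 3. In replicate 2, S100a9 stood at 57.97 TPM and S100a8 at 39.4 TPM, while Mpo was at 0.17, 0.18 and 0 TPM, Elane at 0, 0 and 0.11 TPM and Ly6g listed at 0 in all replicates. In alignment TPM, 6 members were at their lowest in replicate 2 (B2m, H2-K1, H2-D1, H2-T22, H2-Q6 and H2-Q7) and 3 at their highest (H2-T23, H2-M3 and Nlrc5). For H2-D1 the margin was small, at 4772 against 4773 TPM in replicate 1. By FASTQ TPM, only H2-K1 was at its lowest in replicate 2 and only Nlrc5 at its highest. Whether the level of S100a8 and S100a9 bears on the member levels was not tested. Total estimated counts were 23373296, 36818023 and 37681634 in replicates 1, 2 and 3.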

How the data were processed

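Polyadenylated RNA from 3 samples of a single group was analysed from tables deposited by the authors, all on mm10 with annotation M21, per the deposited file lists. Program names were not given in the sources used here. Libraries started from 1 µg RNA, and their sizes ran from 250 to 400, per the labels. The authors' gene and transcript tables from a transcriptome alignment hold expected (estimated) counts and TPM, per the file headers. The transcript table derived from FASTQ files holds estimated counts and TPM, per the file headers, and was summed per gene. Deposited posterior SDs of counts, entered as a score, and deposited bounds for TPM are printed as the authors' values. The authors' percent of gene TPM per transcript was recomputed here from TPM.

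Gene identifiers matched 55450 of 81881 entries. The other 26431, which hold 0.194%, 0.124% and 0.125% of counts, were left out of library sizes. Levels are deposited TPM with mean and SD over 3 replicates; ratios are log2 within a replicate. No test was run, since a single group offers no contrast, and intervals for counting error were not needed at these counts. Scaling used edgeR 4.0.16 (TMM) and DESeq2 1.42.0 in R 4.3.3 on rounded counts, only for the spread between replicates; other steps used Python 3.11.15, numpy 2.4.6, pandas 2.3.3, Biopython 1.88 and matplotlib 3.10.9. Sequence sharing counts 31-base sequences of a gene that also occur in another gene's GENCODE M21 transcripts. Where RefSeq lists 2 promoter windows for a gene, the one nearest the GENCODE start was used.

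Named genes are all 10 members, genes sharing at least 10% of a member's sequence, the 4 highest of each list and any in a count of 5 or fewer, and the 5 genes nearest to Nlrc5. A gene that this rule would name is not reported here. H2-T3, H2-M5, Mr1, Cd1d1, Tap1, Tap2, Ciita and the 3 RFX genes were named after their values were seen. The members and lists were chosen with earlier results of these data known, and motifs after the promoter letters were read. Alternatives were the FASTQ table, counts not divided by length, protein-coding transcripts only, other thresholds, pseudocounts and scalings, and leaving out each replicate.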

Additional observations from a re-analysis of the deposited data

How the results depend on the processing

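The log2 ratio of H2-K1 to H2-D1, 0.81 in alignment TPM, was 0.49 in FASTQ TPM and -0.34 in CPM. It was -0.11 and -0.027 over protein-coding transcripts of the alignment and FASTQ tables. Per base of the effective length of the longest protein-coding transcript it was 0.11. These alternatives for H2-K1 over H2-D1 were chosen after seeing the data, as was the order over protein-coding transcripts and the FASTQ share of protein-coding Nlrc5 transcripts. The log2 ratio of B2m to heavy chains, -0.16, was 0.0098 in FASTQ TPM, 0.25 over protein-coding transcripts and -1.19 in CPM. The H2-K1 and H2-D1 share of heavy chain TPM, 80.5%, was 77.7% by FASTQ, 75.1% over protein-coding transcripts, 79.0% with the other class I genes and 76.6% in CPM. The retained-intron share of H2-K1 was 46.9% and 30.3% by FASTQ, and the protein-coding share of Nlrc5 30.3% and 43.7% by FASTQ. The count of members that differed between tables went from 1 to 0 with a threshold of 1, in CPM, after subtracting the median gene and in sums with near copies. The count of members with a spread of at least 1.5 went from 1 to 4 by FASTQ and to 0 without replicate 3. The causes were not tested.

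Leaving out each replicate gave 0.79 to 0.81 for H2-K1 over H2-D1, -0.23 to -0.12 for B2m to heavy chains, 80.1% to 80.7% for the classical share, 45.2% to 49.9% for H2-K1 retained-intron transcripts and 29.3% to 32.2% for protein-coding Nlrc5. It gave 7 to 9 neighbour pairs that did not overlap, 0 to 1 members past the spread and 39 to 40 list genes at 1 TPM. No paired analysis was possible because there is a single group. Depth did not limit detection of any member, but reads within sequence shared by heavy chain genes cannot by themselves be assigned to 1 gene.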
